A study of Homo sapiens with 4 samples.

Results

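The entities described here were the microRNA precursors that were detected by mRNA sequencing in PK-1, a human line of well-differentiated pancreatic ductal adenocarcinoma (PDAC). A member was any entry with a microRNA symbol, host gene and antisense entries left out, whose deposited value exceeded the floor in 1 or more libraries. Of 1880 entries with such a symbol among 53826 entities, 160 were members. The members were chosen by these values, the log2 TPM of the 4 libraries, so their levels are given as a description. There were 2 models, each with an SPRR1A library and a control library (stable DsRed or transient GFP). Each of the 4 conditions thus had 1 library, and since no condition was replicated, p-values are not given. In the stable model the cells were infected with a retrovirus (pMXs) that carried SPRR1A with a FLAG tag or, as the control, the red fluorescent protein DsRed. In the transient model a plasmid (pCAG) with the same insert, or with green fluorescent protein (GFP), was transfected 48 h before RNA isolation. Neither the methods nor the labels say whether the stable line was 1 clone. Vector, delivery, marker protein and culture history all differ between the models and cannot be told apart. Values are log2 of TPM, a unit in which reads are divided by length and then scaled so that a library sums to 1000000. Entries at a TPM of 1 or less are deposited as 0, which is called the floor here.

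The log2 TPM of SPRR1A, the overexpressed gene, was 10.93 (stable SPRR1A) against 0.75 (stable DsRed) and 16.60 (transient SPRR1A) against 3.56 (transient GFP), in the direction the labels give. Of 7 ductal epithelial markers, 6 (KRT7, KRT8, KRT18, KRT19, EPCAM and CDH1) were above 5 in all 4 libraries, and MUC1 was between 0 and 0.90. Of 15 markers of other cell types, 12 were at 0 in all libraries. The others were CD68 (3.99 to 4.91), COL1A1 (1.96 to 2.62) and PRSS1 (0.64 to 1.86). Depth in reads is unknown. Between 12964 and 13558 entities were above the floor per library.

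MicroRNAs are made from long primary transcripts in which they form a hairpin. The nuclease DROSHA with its partner DGCR8 cuts the hairpin out, XPO5 carries it to the cytoplasm, DICER1 cuts it again, and an Argonaute protein such as AGO2 holds the mature strand. The seed, bases 2 to 8 of that strand, pairs with target mRNAs, and microRNAs with the same seed form a family. Many hairpins lie in an intron or exon of a host gene, and reads of the host transcript that cover the hairpin cannot be told apart from reads of the precursor. Mature microRNAs have no poly(A) tail, so libraries made by poly(A) selection are not a measure of them. The values below are those of the precursor entry alone.

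Mature sequences were at hand for 147 of the 160 members (226 mature strands, RefSeq, GRCh38.p14). They held 214 distinct seeds, of which 10 were shared by 2 or more members. The sequences shown are those of the 3 detected let-7 members, of the miR-200 family and of the miR-25 cluster, which are families with several detected members, and those of members that were past 2-fold in both models. Capitals mark the seed.
let-7i-5p: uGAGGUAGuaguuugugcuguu
let-7d-5p: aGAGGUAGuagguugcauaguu
let-7f-5p: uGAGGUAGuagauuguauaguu
miR-429: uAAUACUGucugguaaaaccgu
miR-200b-3p: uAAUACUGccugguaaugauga
miR-200a-3p: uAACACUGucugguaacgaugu
miR-141-3p: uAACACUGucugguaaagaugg
miR-93-5p: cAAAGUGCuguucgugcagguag
miR-106b-5p: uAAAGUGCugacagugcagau
miR-25-3p: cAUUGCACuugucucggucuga
miR-635: aCUUGGGCacugaaacaaugucc
miR-711: gGGACCCAgggagagacguaag
miR-3153: gGGGAAAGcgaguagggacauuu
miR-4754: aUGCGGACcuggguuagcggagu
The 3 let-7 strands share the seed GAGGUAG. In the miR-200 family, miR-429 shares AAUACUG with miR-200b-3p, and miR-200a-3p shares AACACUG with miR-141-3p. The seed AAAGUGC is common to miR-93-5p and miR-106b-5p, while miR-25-3p of the same cluster has another seed. None of the seeds of miR-635, miR-711 and miR-4754 was shared with another member, and that of miR-3153 was shared with the 5p strand of MIR6739.

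In an mRNA library the entry measures the hairpin region, which is longer than the mature strand. The hairpins of the 2 members that were lower with SPRR1A in both models are shown with the mature strands in capitals. MIRLET7I lies at chr12:62603686-62603769 on the plus strand and MIR635 at chr17:68424451-68424548 on the minus strand (GRCh38).
MIRLET7I: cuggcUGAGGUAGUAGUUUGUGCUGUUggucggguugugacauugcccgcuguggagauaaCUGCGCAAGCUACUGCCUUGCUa
MIR635: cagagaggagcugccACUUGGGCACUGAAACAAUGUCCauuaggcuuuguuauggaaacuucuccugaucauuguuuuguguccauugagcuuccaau
The member hairpins were 47 to 164 bases long, with a median of 80.

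Stable SPRR1A cells had 89 members above the floor, stable DsRed cells 86, transient SPRR1A cells 89 and transient GFP cells 115. Transient GFP also had the most entities above the floor of all kinds (13558). Of the 160 members, 48 were above the floor in all 4 libraries, 24 in 3, 27 in 2 and 61 in 1. The highest value of the 61 members seen in 1 library had a median of 0.47 and a maximum of 2.28. Of these 61, 29 were seen in transient GFP, 12 in transient SPRR1A, 12 in stable DsRed and 8 in stable SPRR1A. Just inside the selection threshold were MIR6084 at 0.01 in stable SPRR1A, and MIR4502 and MIR4686 at 0.02 in transient GFP. The entries just outside it are listed at 0 in all libraries, and a threshold of 1 in place of 0 would have kept 89 of 160.

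Low values moved in steps. In each library, 65 to 89 low products of TPM and length of microRNAs and small nucleolar RNAs were tested for a common step, and 75.4% to 90.5% of them lay within 0.1 step of a whole number of steps. If that step is 1 aligned base, the floor corresponded to a mean coverage of the hairpin of 1.70 times in transient GFP, 1.82 in stable SPRR1A, 2.39 in stable DsRed and 2.75 in transient SPRR1A. By the same steps the SPRR1A library was less deep than its control in the stable model (a ratio of 0.763) and deeper in the transient model (a ratio of 1.62). The library with the lowest coverage at the floor was the one with the most members above it. The part of depth in the number of members seen was not tested.

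The highest members were MIR6723 and MIR4461. For MIR6723 the log2 TPM in the stable model was 15.58 with SPRR1A and 15.73 with DsRed, and in the transient model it was 15.47 with SPRR1A and 15.61 with GFP. It was the highest of all entities in 3 libraries and stood behind SPRR1A in transient SPRR1A cells, with 4.91%, 5.42%, 4.55% and 5.01% of the TPM total in the same order. MIR4461 was at 13.32, 13.13, 13.30 and 13.55. It had the next rank in each library. The difference between SPRR1A and control was -0.14 in both models for MIR6723, and 0.19 (stable) and -0.26 (transient) for MIR4461, smaller in size than those of many low members. Together they made up 5.56% to 6.31% of the TPM total, and the TPM of all other members summed to between 550.2 and 725.8.

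RefSeq and GENCODE, as used here, gave no position for these 2 entries. The rows of the tables run in order of position for 98.7% of neighbouring entries. MIR6723 stands between the pseudogenes MTCO1P12 and MTCO2P12, and MIR4461 between MTND4P12 and MTND3P25, which are nuclear copies of mitochondrial genes. The segment from MTCO1P12 to MTCO2P12 (chr1:631074-633438) aligned to the mitochondrial genome with an identity of 98.5% over 2367 aligned positions, and that from MTND4P12 to MTND3P25 (chr5:134926661-134928527) with 95.3% over 1867. All 37 genes of the mitochondrial genome were listed at 0 in all 4 libraries, as were all 392 nuclear mitochondrial pseudogenes recognised by symbol. In contrast, 8 of 13 entries of the MTRNR2L group, nuclear copies that resemble the mitochondrial large ribosomal RNA, were above the floor, and the highest reached 13.05. How many reads of mitochondrial transcripts were counted under MIR6723 and MIR4461 was not tested.

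The next highest member, MIR5047, was at 7.44, 7.34, 7.17 and 7.38 and MIR3064 at 5.49, 5.73, 5.18 and 5.26, with the stable libraries first (SPRR1A, then DsRed) and the transient ones next (SPRR1A, then GFP), an order that is kept from here on. Both lie wholly in exons of DDX5, an RNA helicase that also takes part in microRNA processing. For MIR5047 this counts transcripts classed as retained introns, without which 53.0% of the hairpin lies in an exon. DDX5 itself was at 8.22, 8.15, 8.22 and 8.36. MIR614 was at 6.53, 6.23, 6.23 and 6.90 and lies wholly in an exon of GPRC5A, an orphan G protein-coupled receptor gene (7.96, 7.84, 8.10 and 8.29). MIR1304, in an exon of TAF1D, was at 4.47, 4.67, 4.21 and 4.18. MIR3654, in an intron of CHCHD3 and in an exon of an unnamed gene on the same strand, was at 4.57, 4.91, 3.10 and 3.55, and both of its transient values were below both of its stable values. The rest of the 15 highest members were MIR1282, MIR3972, MIR25, MIR205, MIR1914, MIR4426, MIR647 and MIR570, none of which was above 4.92 in any library. Of these 15 members, MIR1282 was the one past 2-fold with SPRR1A, in the transient model. It was at 3.68, 3.40, 3.60 and 4.92, and the transient GFP library stood above the other 3.

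A position was found for 155 members. The whole hairpin lay in an exon of a gene on the same strand for 52, part of it for 12, and 67 lay in an intron, while 24 had no annotated gene on the same strand. In 12 of the 64 members in an exon, the exon belonged only to transcripts classed as retained introns (MIR1304, MIR637 and MIR6758 among them). In some others, such as MIR6748 (12.7%) and MIR7109 (9.2%), only part of the hairpin lay in an exon of other transcripts. Among all entries with a microRNA symbol, 18.3% of those wholly in an exon were above the floor, against 14.0% of those partly in an exon, 6.77% of those in an intron and 4.86% of those with no gene on the same strand. The 125 members with a host gene in the tables had 118 distinct hosts. Their hosts had a median of 5.41 (mean log2 TPM over the 4 libraries), against 2.69 for the hosts of 1070 other microRNA entries, and 7.20% of them were at 0 in all libraries, against 31.4%. Within a host, the entry was usually lower than the gene. The median difference between member and host was -3.99 for hairpins wholly in an exon and -4.84 for those in an intron. These means take values at the floor as 0, and 48 members were above the floor in all 4 libraries. The size of the differences is thus set in part by the floor.

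**Figure D1:**
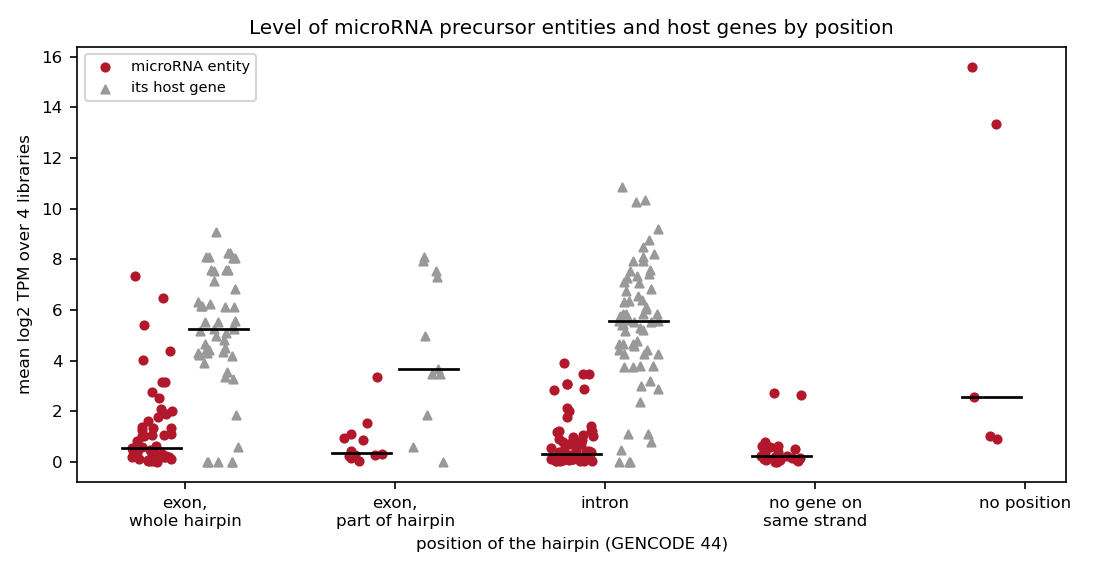
Mean log2 TPM over the 4 libraries (vertical axis) of each member (circles) and of its host gene (triangles), by the position of the hairpin. Horizontal bars are medians. The host medians are 5.24 for whole exon, 3.68 for part exon and 5.56 for intron hairpins, and the 2 points above 12 without a position are MIR6723 and MIR4461.

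In the stable model 11 members were higher and 9 lower by more than 2-fold in SPRR1A than in DsRed cells, which is 17.9% of the 112 members above the floor in at least 1 of the 2 libraries. The same rule called 0.947% of all entities (0.526% higher and 0.421% lower). The median difference of the members was 0.02, beside 0.07 for all entities. In the transient model 8 members were higher and 21 lower in SPRR1A than in GFP cells, or 21.5% of 135, beside 0.889% of all entities (0.19% higher and 0.7% lower). The median of the members was -0.22 and that of all entities was -0.19. When differences were centred on the median of entities that reached a TPM of 5 in SPRR1A and control alike (-0.18 in the transient model), the transient split became 16 higher and 14 lower, and without SPRR1A in the TPM total it became 13 and 19. The split between higher and lower members in the transient model thus depended on the scaling. The members were chosen for a value above the floor in any library, so their share past 2-fold is a description.

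Most members lie low on the scale, where the share past 2-fold was also higher among all entities. Of members whose higher value was between 1 and 4 log2 TPM, the share past 2-fold was 35.7% (stable) and 38.6% (transient), against 2.26% and 2.25% of all entities in that band. Other small RNAs in the band were closer to the members, with 30.6% and 24.7% of box C/D small nucleolar RNAs and 22.5% and 18.6% of box H/ACA and Cajal body RNAs. Between the transient and stable libraries, the shares in the band were 53.0% (controls) and 52.5% (SPRR1A) of members, 14.6% and 7.21% of all entities, 34.3% and 27.9% of box C/D RNAs, and 28.6% and 33.3% of box H/ACA and Cajal body RNAs. This band was chosen after the values were seen. In the stable model 14 of the 20 members past 2-fold, and in the transient model 20 of the 29, had 1 library at the floor, so that their differences are set by the floor. If a step is 1 aligned base, the members past 2-fold had a median coverage in the higher library of 6.51 times (stable) and 6.26 times (transient). No such member was above a log2 TPM of 3.18 (stable) or 4.92 (transient).

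**Figure D2:**
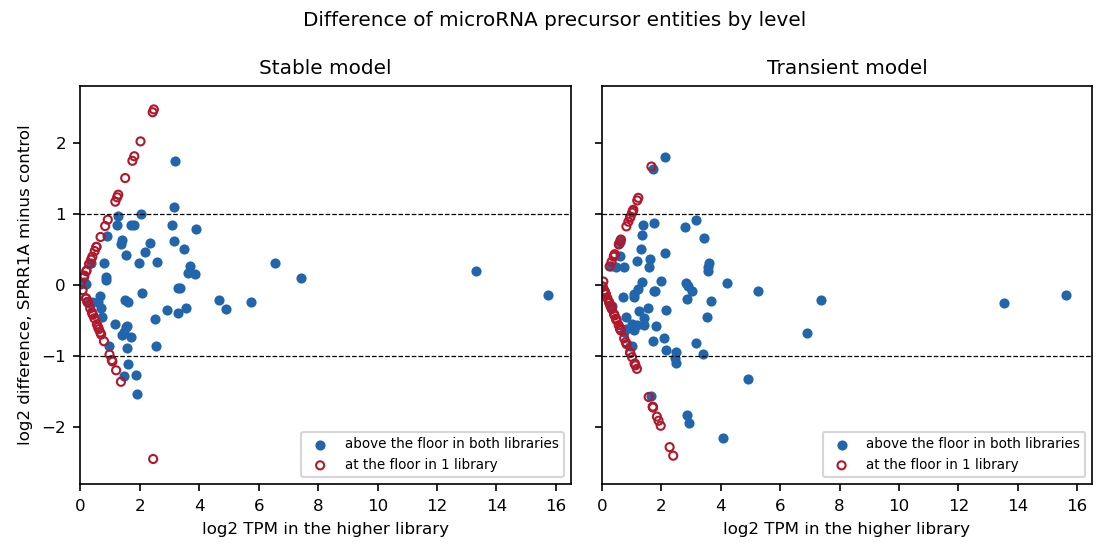
Log2 difference between SPRR1A and control (vertical axis) against log2 TPM in the higher of the 2 libraries (horizontal axis), for members above the floor in at least 1 of them. Open circles are members at the floor in 1 library, dashed lines mark 2-fold, and no member above a log2 TPM of 4.92 lies outside the lines.

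The let-7 family, which represses growth-promoting genes such as HMGA2, MYC and the RAS genes, had 11 entries, of which 3 were above the floor. MIRLET7I was at 0.60, 1.86, 0 and 1.85. Both SPRR1A libraries were below both controls, with differences of -1.26 and -1.85. MIRLET7D, whose hairpin lies at chr9:94178834-94178920, was at 2.87, 3.27, 0.997 and 2.93, so that transient SPRR1A cells stood below the other 3 libraries. Its differences were -0.40 and -1.94. MIRLET7F2, in an intron of HUWE1, was listed at 0 apart from 0.19 in transient GFP cells. The hairpins of MIRLET7I and MIRLET7D lie wholly in exons of their host transcripts MIRLET7IHG and MIRLET7A1HG, for which no entry was found in the tables. The TPM of the 3 let-7 members above the floor summed to 8.85, 13.3, 1.996 and 12.4.

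MIR635 was the other member past 2-fold in the same direction in both models on the deposited scale. It was at 0, 1.20, 0.08 and 1.64, with differences of -1.20 and -1.56, and both SPRR1A libraries were again below both controls. It lies in an intron of WIPI1, an autophagy gene, which was at 3.33, 3.15, 4.32 and 4.40 (differences 0.18 and -0.08). On a log2(TPM + 1) scale neither remained past 2-fold in both models, since MIRLET7I was then at -0.88 in the stable model and MIR635 at -0.998 in the transient model, whichever way the floor was treated. No member was past 2-fold and higher in both models on the deposited scale, but this call depended on the scaling. With centring MIR429 was (1.04 stable and 1.10 transient), and without SPRR1A in the TPM total both MIR429 (1.10 and 1.06) and MIR4737 (1.001 and 1.96) were. With log2(TPM + 1) and entities at the floor set to a TPM of 0, MIR2117 was (1.29 and 1.61). Under that setting any member above the floor in 1 library of a model and at it in the other is past 2-fold. MIR200B and MIR3936 were thus also higher in both models, and MIR6732 and MIR6859-1 lower in both. On the deposited scale MIR4737 came closest, at 2.04, 1.04, 2.14 and 0.33, with a difference of 1.81 in the transient model and of 0.998, just under the threshold, in the stable model. Its hairpin lies wholly in an exon of HEATR6, whose differences were 0.06 and -0.04. Of the 160 members, 16 had a positive difference in both models and 24 a negative one. Signs also leaned among all entities above the floor in both compared libraries. Against DsRed, 8166 of 12739 were positive, and against GFP, 11877 of 13092 were negative. Sign and 2-fold calls shared across models were not counted for all entities, so such member counts, here and below, have no background. The paper's list of entities lower in both holds MIRLET7I and MIR635 beside small nucleolar RNAs.

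Members past 2-fold in opposite directions in the 2 models numbered 4, each higher with SPRR1A in the stable and lower in the transient model. MIR3687-1 was at 1.23, 0, 0 and 2.40 (differences 1.23 and -2.40). A second entry of that name, MIR3687-2, was at 0 throughout. How reads of near-identical copies were assigned to these entries is not known. MIR711, partly in an exon of the type VII collagen gene COL7A1, was at 1.75, 0, 0 and 1.98 (differences 1.75 and -1.98), while COL7A1 was at 3.33, 3.78, 3.72 and 3.89. MIR3153, in an intron of the cell cycle gene CKS2, was at 2.02, 0, 0 and 1.11 (differences 2.02 and -1.11). MIR4754, with no annotated gene on its strand, was at 1.51, 0, 0 and 1.01 (differences 1.51 and -1.01). Centring took MIR3153 (-0.92) and MIR4754 (-0.83) within 2-fold in the transient model. On log2(TPM + 1) with the floor kept, only MIR711 (1.12 and -1.31) stayed past 2-fold in both models. With the floor set to a TPM of 0 instead, all 4 stayed, and others with the same pattern of presence, such as MIR6797 (1.77 in the stable model), joined them. All 4 were at the floor in stable DsRed and in transient SPRR1A cells, the deeper library of each model by the step estimate. The part of depth in this pattern was not tested.

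**Figure D3:**
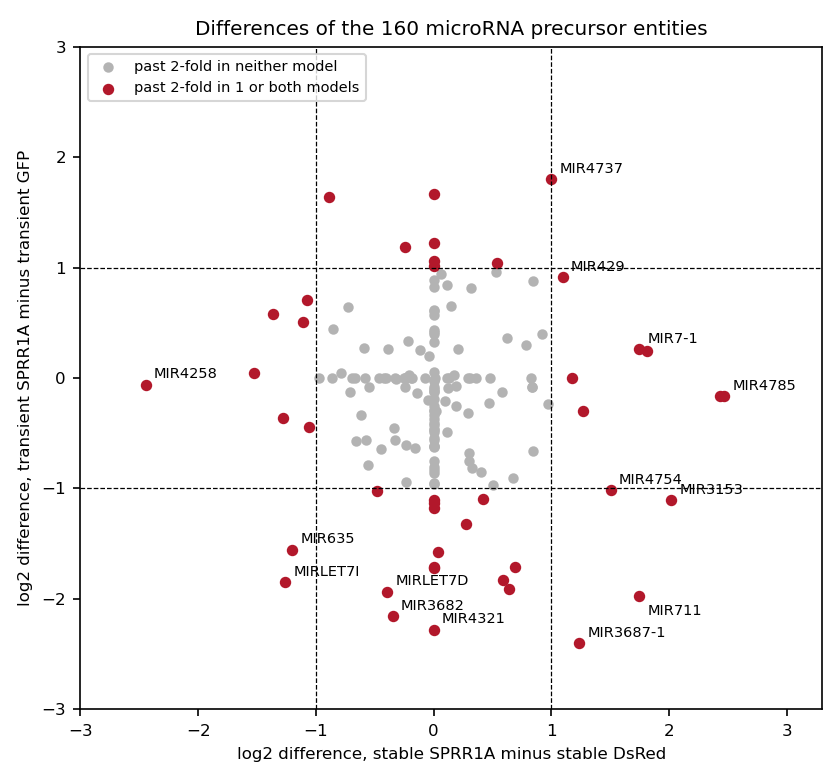
Log2 difference between SPRR1A and its control for each of the 160 members in the stable model (horizontal axis) and the transient model (vertical axis). Each point is 1 member and dashed lines mark 2-fold. MIRLET7I and MIR635 are the points past both lines at lower left, and the 4 members past 2-fold in opposite directions are at lower right. No point lies past both lines at upper right on this, the deposited scale.

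Past 2-fold in the stable model alone were 14 members. The largest differences were those of MIR4785 (2.47, 0, 0.90 and 1.07) and MIR4653 (2.43, 0, 0.55 and 0.71), which were highest in stable SPRR1A, and of MIR4258 (0, 2.45, 1.14 and 1.20), which was highest in stable DsRed. MIR637, in an exon of the kinase gene DAPK3, was at 1.81, 0, 0.49 and 0.24. MIR7-1 was at 3.18, 1.43, 1.60 and 1.34, above the floor in all 4 libraries, with a stable difference of 1.75. Its mature strand miR-7-5p, known to target EGFR, also comes from 2 other loci, MIR7-2 and MIR7-3, both at 0 throughout. The MIR7-1 hairpin lies in an exon of HNRNPK, which was at 9.14, 9.05, 8.99 and 9.19. MIR186, in an intron of the splicing factor gene ZRANB2, was at 0.36, 1.89, 1.36 and 1.31, and its stable difference of -1.53 was not set by the floor. MIR6758, wholly in an exon of the methionyl-tRNA synthetase gene (listed as MARS), was at 0, 1.36, 0.58 and 0. The 6 not described elsewhere (MIR4263, MIR4326, MIR5004, MIR6797, MIR6835 and MIR7110) had differences from -1.28 to 1.27.

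Past 2-fold in the transient model alone were 23 members. MIR4321, in an exon of AMH, was seen in transient GFP cells alone, at 2.28. MIR3682, in an intron of ASB3, was at 2.56, 2.91, 1.94 and 4.09, a difference of -2.16 with both libraries above the floor. MIR4449, wholly in an exon of the long noncoding RNA gene DANCR, was at 1.39, 0.75, 0 and 1.91. MIR4517, in an exon of NFATC2IP, was at 2.35, 1.75, 1.03 and 2.86, so that transient SPRR1A was again the lowest library. MIR1248 was at 1.72 in transient GFP and at 0 elsewhere. Its hairpin overlaps an exon of EIF4A2 and the small nucleolar RNA SNORA81, so its reads could have been divided between 3 entries. Among the higher ones, MIR210, a microRNA known to respond to hypoxia, was at 1.67 in transient SPRR1A cells and at 0 in the other 3 libraries, while its host MIR210HG was at 0.11, 0.55, 1.003 and 1.50 (transient difference -0.50). MIR23A (1.23) and MIR29A (1.02) were also seen in transient SPRR1A cells alone. The MIR23A host transcript, listed as LOC284454, was at 4.36, 4.62, 3.89 and 4.33. MIR6859-4 was at 0.68, 1.57, 1.73 and 0.09. It is 1 of 4 near-identical copies, of which MIR6859-1 was at 0, 0.62, 0 and 0.34 and the other two at 0, so reads could have been divided among them. The 11 others (MIR2117, MIR3911, MIR3916, MIR4260, MIR4479, MIR4635, MIR4691, MIR555, MIR6824, MIR7109 and MIR7111) had differences from -1.72 to 1.19.

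**Figure D4:**
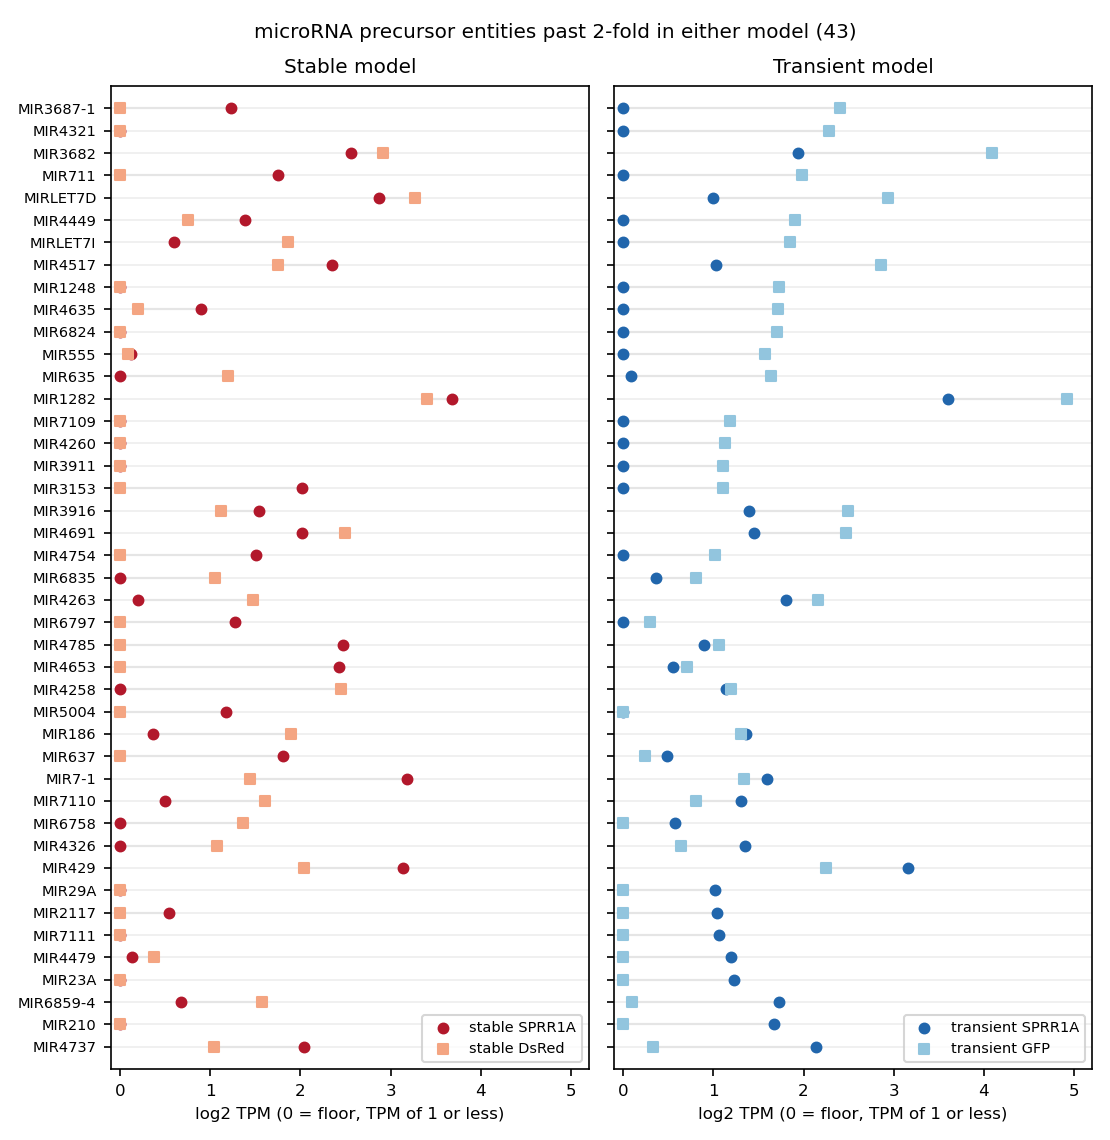
Log2 TPM (horizontal axis) of the 43 members past 2-fold in either model, 1 row each, in the stable (left) and transient (right) libraries. Circles are SPRR1A and squares are control libraries, a square at 0 can cover a circle at 0, and rows are sorted by the transient difference. Most rows have at least 1 point at the floor, and the farthest point is MIR1282 in transient GFP at 4.92.

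The miR-200 family, which represses the ZEB transcription factors and is high in epithelial cells, has 5 genes in 2 clusters. In the chromosome 1 cluster, MIR429 (chr1:1169005-1169087) was at 3.13, 2.04, 3.16 and 2.25. Both SPRR1A libraries were above both controls, with a difference of 1.10 in the stable model and of 0.91, within 2-fold, in the transient model, which became 1.10 with centring and 1.06 without SPRR1A in the TPM total. MIR200B was at 0.53, 0, 0.96 and 0 and was above the floor in SPRR1A libraries alone. MIR200A was at 0, 0, 0.97 and 1.43, above the floor in transient libraries alone. The TPM of the cluster above the floor summed to 10.2, 4.10, 12.9 and 7.45. In the other cluster MIR200C was at 0 throughout, and MIR141 was at 0.10, 0.96, 0 and 0, with its host MIR200CHG at 4.04, 4.04, 3.62 and 3.26. MIR200A was at the floor in both stable libraries and MIR141 in both transient ones, so each had a direction in the other model only. There the SPRR1A library was below its control, unlike for MIR429 and MIR200B. Apart from MIR429, these values are close to the floor.

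The MCM7 cluster of MIR25, MIR93 and MIR106B lies within MCM7, a replication helicase gene, and all 3 were members. MIR25 was at 3.87, 3.72, 3.44 and 2.78, MIR93 at 0.61, 1.17, 0.95 and 1.73, and MIR106B at 0, 0, 0.17 and 1.03. None was past 2-fold with SPRR1A, and in the transient model MIR25 was higher and the others lower (0.66, -0.79 and -0.86) while MCM7 differed by -0.10. Their summed TPM was 16.1, 15.4, 13.9 and 12.2. MIR205, a microRNA of stratified epithelia, was at 3.23, 3.27, 3.57 and 3.37, with a narrow spread, and its host MIR205HG was at 7.18, 7.28, 7.29 and 7.48. MIR221 was at 0.80, 0.48, 2.81 and 1.99, with both transient libraries above both stable ones. Members that share a host (MIR25, MIR93 and MIR106B in MCM7, and MIR3064 and MIR5047 in DDX5, for example) are not independent of each other.

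The host genes of the members past 2-fold with SPRR1A were set beside them. In the stable model 16 of the 20 members past 2-fold had a host in the tables. None of these hosts was past 2-fold, beside 0.947% of all entities, and their differences ran from -0.44 to 0.21. In the transient model 23 of the 29 had a host in the tables. Of these hosts, 21 were above the floor in both libraries. Again no host was past 2-fold, beside 0.889% of all entities. Host differences ran from -0.50 to 0.09, beside a median of -0.19 for all entities. With so few hosts, counts of 0 lie near the shares of all entities. The largest host differences beside a called member were those of COL7A1 (-0.44, stable) and MIR210HG (-0.50, transient), each opposite in sign to its member.

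**Figure D5:**
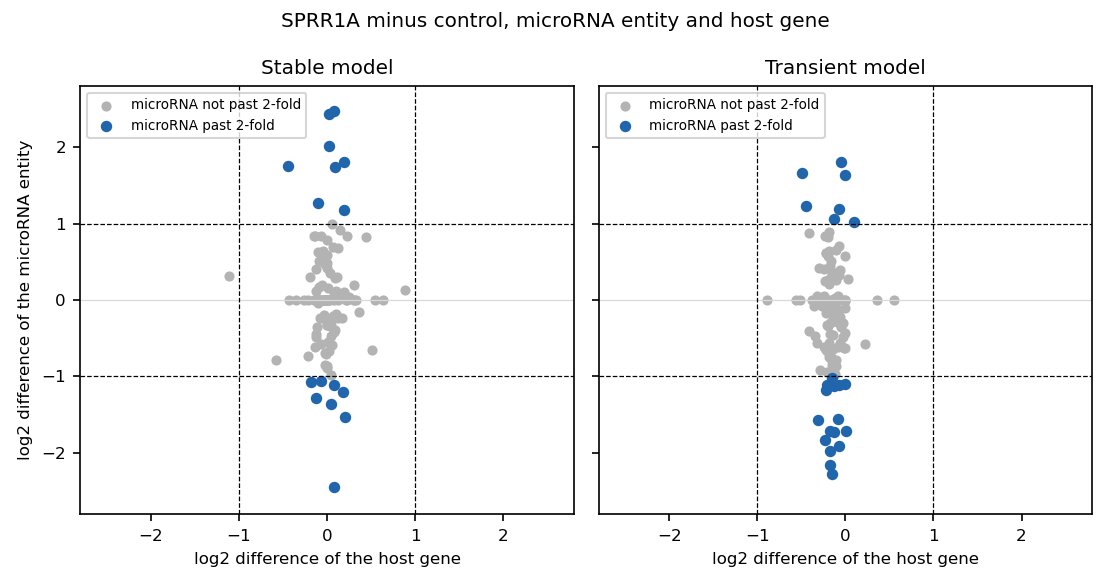
Log2 difference of the microRNA entry (vertical axis) against that of its host gene (horizontal axis), SPRR1A minus control, in the stable and transient models. Each point is 1 member with a host in the tables, and dashed lines mark 2-fold. Members past 2-fold spread along the vertical axis while their hosts lie between -0.50 and 0.21.

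Of 26 genes of the microRNA pathway, 24 were above the floor, and LIN28A and LIN28B were at 0 throughout. None of the 24 was past 2-fold in either SPRR1A comparison, beside 0.947% (stable) and 0.889% (transient) of all entities. DROSHA was at 5.18, 5.06, 4.86 and 5.06, DGCR8 at 5.19, 5.24, 4.81 and 5.13, XPO5 at 5.07, 5.01, 4.79 and 4.88, DICER1 at 3.66, 3.40, 3.59 and 3.95, and AGO2 at 4.30, 3.93, 3.96 and 4.26. The list had median differences of 0.07 (stable) and -0.18 (transient), beside 0.07 and -0.19 for all entities. Of 20 textbook let-7 targets, 18 were above the floor and none was past 2-fold in either SPRR1A comparison. For lists this short, counts of 0 lie near the shares of all entities. Their differences ran from -0.14 (HRAS) to 0.37 (NRAS) in the stable model, with a median of 0.16, and from -0.42 (IGF1R) to -0.03 (HRAS) in the transient model, with a median of -0.20. HMGA1, whose intron holds MIR6835, was at 10.44, 10.51, 10.12 and 10.30.

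The controls, which carried DsRed or GFP in place of the SPRR1A insert, were also compared with each other. SPRR1A itself differed between them by 2.82, with 0.75 in stable DsRed and 3.56 in transient GFP. Vector, delivery, marker protein and culture history differ as well, so these shares are not a baseline for the SPRR1A comparisons. In transient GFP against stable DsRed cells 30 members were higher and 8 lower, or 27.7% of 137, beside 7.52% of all entities (6.86% higher and 0.661% lower). The same centring made this 23 and 11. In transient SPRR1A against stable SPRR1A cells 14 were higher and 18 lower, or 27.4% of 117, beside 3.59% of all entities (2.61% higher and 0.974% lower). These comparisons share libraries with those above. Above the floor in both transient and neither stable library were 7 members (MIR106B, MIR200A, MIR3189, MIR3929, MIR4284, MIR5587 and MIR573), and 5 showed the reverse (MIR103A2, MIR103B2, MIR141, MIR3677 and MIR3934). These are 4.38% and 3.13% of the members, beside 1.86% and 0.531% of all entities above the floor in any library. By presence alone, 3 members were above the floor in both SPRR1A and neither control library (MIR200B, MIR2117 and MIR3936) and 2 in both control and neither SPRR1A library (MIR6732 and MIR6859-1), or 1.88% and 1.25% of the members, beside 0.108% and 0.258% of those entities. Of the pathway list, AGO4 was past 2-fold between the controls (1.08).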

How the data were processed

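Stranded mRNA libraries of 4 PK-1 cultures were sequenced in paired-end mode. Alignment to the hg38 transcriptome and TPM normalization were done by the authors in Strand NGS with default settings, and the deposited values are the log2 of TPM. Software version, annotation release and the treatment of multiply mapped reads are not given in the sources used here. Depth is unknown.

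Log2 differences between libraries were called past 1 or -1 (2-fold), as in the study. With 1 library per condition no comparison has a test, and a fit that takes the models as a pair of replicates was not run because vector and control differ between them. The steps used products of TPM and length below 200. Hairpins came from RefSeq (GRCh38.p14, 129 members) or from the RefSeq span with the GENCODE 44 strand (26 members). The host was the same-strand GENCODE gene with the highest mean in the tables, and segments were aligned with blastn 2.17.0. Members and lists were chosen with earlier results of these data known. Named were members past 2-fold in both models, in opposite directions or among the largest differences, the 15 highest, let-7, MIR6723, their hosts, and list genes past 2-fold with DROSHA, DGCR8, DICER1, XPO5 and AGO2. The miR-200, miR-25, MIR205 and MIR221 entries and the presence patterns were picked after their values were seen. Alternatives were log2(TPM + 1), log2(TPM + 0.1), centring, SPRR1A left out of the total, filters on TPM and exon overlap, and a 3-fold threshold. Calculations were tested on simulated data. Python 3.11.15, numpy 2.4.6, pandas 2.3.3 and matplotlib 3.10.9 were used.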

Additional observations from a re-analysis of the deposited data

Results flagged for a closer look

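These 4 members are listed because SPRR1A stood more than 2-fold above its control in one model and more than 2-fold below it in the other. Each model had 1 library per condition, and whether the models differ was not tested. The values, stable and then transient, were 2.02 and -1.11 for MIR3153, 1.23 and -2.40 for MIR3687-1, 1.51 and -1.01 for MIR4754, and 1.75 and -1.98 for MIR711. With centring MIR3153 (-0.92) and MIR4754 (-0.83) were within 2-fold in the transient model, and on log2(TPM + 1) with the floor kept only MIR711 stayed past 2-fold in both models. Each member was at the floor in stable DsRed and in transient SPRR1A cells, the libraries with the larger estimated depth in their model.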

How the results depend on the processing

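No paired analysis was possible because the groups of each comparison share only 1 replicate number, and a fit over both models was not run. The counts past 2-fold are given as stable, transient, control against control, and SPRR1A against SPRR1A, where the deposited values gave 20, 29, 38 and 32. They became 8, 15, 15 and 17 with log2(TPM + 1) and the floor kept, 51, 72, 80 and 68 with log2(TPM + 1) and entities at the floor set to a TPM of 0, 5, 7, 10 and 11 where the higher TPM had to reach 5, 6, 9, 17 and 16 above the floor in both libraries, 11, 10, 16 and 17 for members in no exon of a same-strand gene, and 7, 14, 9 and 11 at a 3-fold threshold. Members within a gene numbered 131 on the same strand and 146 on either strand. A threshold of 1 for membership gave 89 members in place of 160. Under log2(TPM + 1) with the floor kept, 8 of the 20 stable and 15 of the 29 transient members stayed past 2-fold, and with centring 20 and 22 did. Of these 20 and 29 calls together, 26 dropped to within 2-fold under that setting, MIR635 in both models (-0.72 and -0.998) and MIRLET7I in the stable model (-0.88) among them, 7 with the floor set to 0, 6 with log2(TPM + 0.1), 7 with centring and 2 with SPRR1A left out of the total, and none changed sign under these 5 alternatives while called. MIR429 came past 2-fold in the transient model with centring (1.10) and with SPRR1A left out (1.06), and MIR4737 in the stable model with SPRR1A left out (1.001). With the floor set to 0, 3 values of members already called in the other model came past 2-fold, MIR2117 in the stable model (1.29) among them. The floor limits these results, since most members past 2-fold with SPRR1A had 1 of the compared values there. Depth in reads is unknown, and its part was not tested.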
